A study of Mus musculus with 37 samples.

Results

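Mast cells are tissue-resident myeloid cells that store proteases, biogenic amines and heparin-like proteoglycans in cytoplasmic granules and release them when IgE bound to the high-affinity receptor Fc epsilon RI is cross-linked. They depend on Kit, the receptor tyrosine kinase for stem cell factor, and carry receptors through which cytokines, peptides and lipids also act on them. The genes described here are those that set untreated mast cells apart from 4 other untreated mouse myeloid cell types. Deposited transcript values were summed per gene, genes with any of the 5 untreated values at 10 or more were kept, and the difference of log2(value + 1) from the highest of the 4 other cell types was taken. Of 6470 kept genes, out of 6509 in the table, 435 were at least 2-fold higher in mast cells than in every other cell type (6.72%), and 413 were at least 2-fold lower than in every other cell type (6.38%). As these genes were chosen on the untreated values, their untreated levels are given as a description with no test.

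RNA-seq was performed on C57Bl6cJ mouse cells left untreated, given 100 ng/ml of IL-10 for 4 h, given 100 ng/ml of LPS for 4 h, or given IL-10 for 4 h before LPS for 4 h more, except that eosinophils have only the untreated and LPS groups. Mast cells and eosinophils were grown in culture from bone marrow, macrophages were adherent peritoneal cells elicited with thioglycollate, neutrophils came from bone marrow by density gradient and were kept overnight with the growth factor GM-CSF, and splenic dendritic cells (sDCs) were enriched from spleen by magnetic separation. Each group had 2 libraries from independent mice, 36 libraries over 18 groups in all. All cell types came from the same strain with no genetic change, and culture, tissue of origin and cell type cannot be told apart. The libraries were also prepared with more than a single kit, which cannot be told apart from cell type for the sDCs.

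The table gives 1 value per group, the authors' mean over 2 libraries of tag counts normalised for GC content. The spread between the libraries is not in these values, so no SD, n or p-value accompanies any comparison, and whether a difference exceeds the spread between replicates was not tested. Sequencing depth cannot be read from them either. Sums over genes were similar between groups, from 10207959.5 to 11499748. The highest value, 185338, was the same in all 18 columns. In untreated mast cells 4 transcripts shared it, from Tpsb2, Il1rl1, Cyp11a1 and Eef1a1, so the levels of these genes cannot be ranked above it and their folds are limited by it. Values are not scaled for transcript length, so ranks of genes by level are given below only per kb of transcript. Sums over genes, shares of a column and the highest or lowest value among genes use unscaled values, in which long transcripts weigh more. In bulk samples fewer cells of a type and less RNA per cell cannot be told apart.

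The labelled cell type was checked against its markers. Of 10 mast cell markers listed, 3 were in the table, Kit, Tpsb2 and Tpsab1, and all 3 were higher in mast cells than in every other cell type. The summed level of these 3 was 315765 in mast cells, 8800 in sDCs, 3906.5 in neutrophils, 250.5 in eosinophils and 168.5 in macrophages. The other 7, among them Cpa3, Fcer1a, Ms4a2, Gata2 and Hdc, were not analysed here. Both basophil markers in the table were also higher in mast cells, Cd200r3 at 16772 against 960.5 or less elsewhere and Prss34 at 2221 against 1021 or less. A basophil share in the cultures was not tested. Mcpt8, the defining basophil protease, was not analysed here.

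Over all kept genes, mast cells held the highest of the 5 values for 1636 genes and the lowest for 1185. Of the 435 genes, 220 were at least 4-fold, 91 at least 16-fold and 19 at least 256-fold above the highest other cell type on the log2(value + 1) scale. In 61 of them all 4 other cell types lay under 10, and in 11 all 4 were listed at 0. The median of the 435 was 2.03 log2 units above the highest other cell type, against -0.72 over all kept genes. The same rule picked 587 genes in macrophages (9.07%), 539 in sDCs (8.33%), 206 in neutrophils (3.18%) and 193 in eosinophils (2.98%). Just inside the 2-fold threshold stood Shank1, at 17 in mast cells and 8 in neutrophils, and just outside it 2610507B11Rik, at 13280 in mast cells and 6659 in macrophages.

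These genes were chosen for being higher in mast cells, so a larger share of that column follows from the choice. They summed to 26.7% of the untreated mast cell column and to 2.4% in sDCs, 2.56% in macrophages, 2.89% in neutrophils and 3.81% in eosinophils. In finding the cell type with the next highest value, ties went to the one listed first. The 11 genes listed at 0 in all 4 others were thus counted under the macrophage. Its count is therefore not ranked above that of the eosinophil. The cell type holding the next highest value was spread over the other 4. It was the macrophage for 132 of the 435 genes (30.3%, against 31.9% of kept genes), the eosinophil for 126 (29.0%, against 24.7%), the sDC for 101 (23.2%, against 26.8%) and the neutrophil for 76 (17.5%, against 16.6%). Over all kept genes mast cells lay within 2-fold of eosinophils for 57.9%, of neutrophils for 55.8%, of sDCs for 54.6% and of macrophages for 52.8%.

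**Figure D1:**
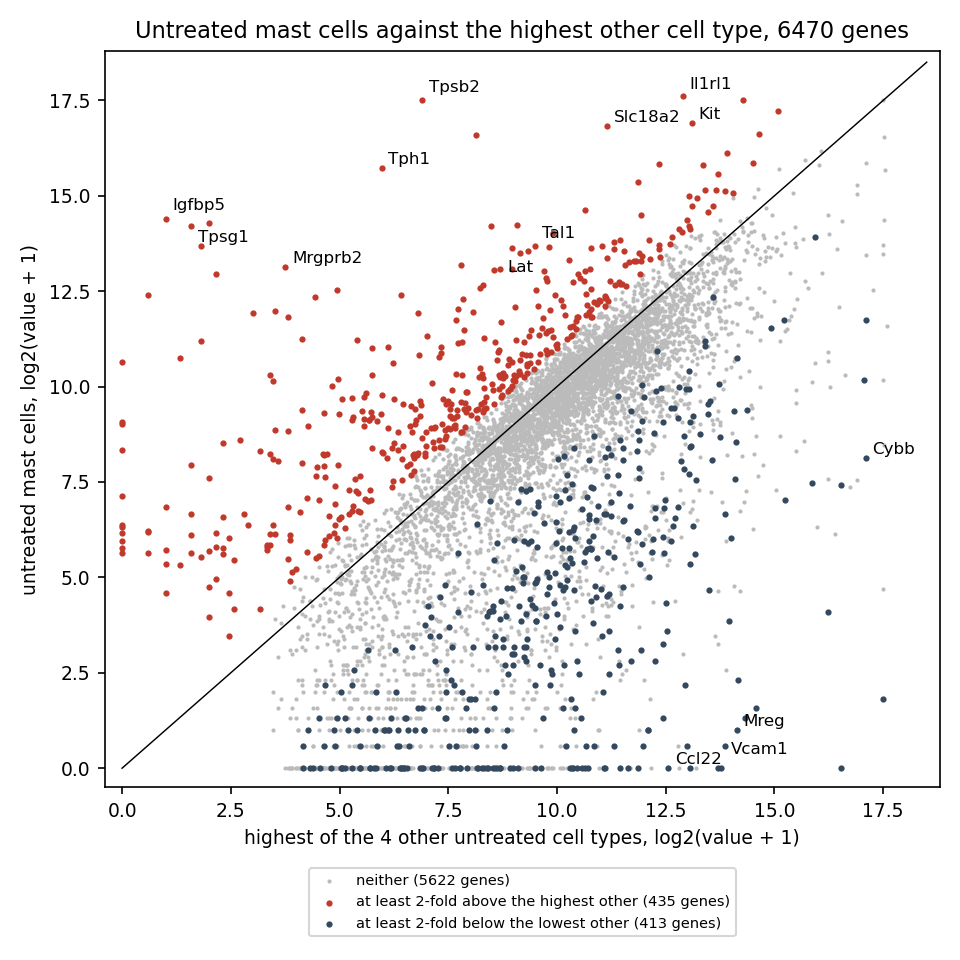
Each point is a gene, with log2(value + 1) in untreated mast cells on the y axis and the highest of the 4 other untreated cell types on the x axis; the line marks equal values. The 435 red genes lie at least 1 log2 unit above the line, Igfbp5, Tpsg1 and Mrgprb2 far to the left with other cell types at 12.5 or less, and the 413 dark genes, such as Mreg, Vcam1 and Ccl22, lie at least 1 log2 unit below even the lowest other cell type.

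Promoters of these genes were read from the reference genome and searched for short words, as a description of their sequence. GATA factors, the zinc finger proteins that bind GATA letters, act in mast cell development. Each promoter ran from 250 bases before to 50 bases from a transcript start site, in NCBIM37 (mm9) with GENCODE vM1 starts. For each gene the transcript with the highest mean over all 18 groups was used. The word AGATAA was searched on both strands, and so were the word AGATAG, the word TGATAA and the word TGATAG, with overlaps allowed. Shown are the promoters of 3 mast cell-high genes that hold a match and of 2 defining markers, Tpsb2 and Kit, that hold none, all written 5′ to 3′ on the strand of the gene with matches in capitals.
Tpsg1, chr17:25505968-25506267, plus strand: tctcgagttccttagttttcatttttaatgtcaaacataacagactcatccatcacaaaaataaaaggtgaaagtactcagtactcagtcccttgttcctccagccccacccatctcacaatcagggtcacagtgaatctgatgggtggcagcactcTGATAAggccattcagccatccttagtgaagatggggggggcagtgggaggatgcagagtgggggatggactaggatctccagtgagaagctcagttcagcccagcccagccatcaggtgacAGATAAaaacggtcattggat
Mrgprb2, chr7:55813407-55813706, minus strand: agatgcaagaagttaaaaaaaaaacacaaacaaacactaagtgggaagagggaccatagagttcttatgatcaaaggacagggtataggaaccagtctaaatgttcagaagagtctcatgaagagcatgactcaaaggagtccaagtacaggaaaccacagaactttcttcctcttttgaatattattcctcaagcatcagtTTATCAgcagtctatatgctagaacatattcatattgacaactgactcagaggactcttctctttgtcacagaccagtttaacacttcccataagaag
Slc18a2, chr19:59335118-59335417, plus strand: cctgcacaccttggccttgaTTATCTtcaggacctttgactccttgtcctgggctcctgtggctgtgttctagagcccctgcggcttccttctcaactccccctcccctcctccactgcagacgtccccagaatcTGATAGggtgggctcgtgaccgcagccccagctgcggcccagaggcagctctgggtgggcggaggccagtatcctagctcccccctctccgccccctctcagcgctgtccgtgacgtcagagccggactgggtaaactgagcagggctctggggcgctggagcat
Tpsb2, chr17:25503245-25503544, plus strand: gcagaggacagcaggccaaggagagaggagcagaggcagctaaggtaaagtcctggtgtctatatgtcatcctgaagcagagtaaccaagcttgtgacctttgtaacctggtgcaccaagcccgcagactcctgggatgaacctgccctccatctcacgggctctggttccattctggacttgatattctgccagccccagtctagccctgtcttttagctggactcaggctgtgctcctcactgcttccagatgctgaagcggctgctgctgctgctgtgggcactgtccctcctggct
Kit, chr5:75970691-75970990, plus strand: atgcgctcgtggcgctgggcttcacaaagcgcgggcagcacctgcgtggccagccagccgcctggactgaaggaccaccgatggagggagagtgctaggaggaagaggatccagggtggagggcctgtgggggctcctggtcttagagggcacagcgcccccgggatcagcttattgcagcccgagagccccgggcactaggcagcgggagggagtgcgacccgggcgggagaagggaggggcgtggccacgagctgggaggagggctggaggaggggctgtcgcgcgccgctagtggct

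In Tpsg1 the matches began 93 bases before the start site and at base 30 after it. The Mrgprb2 match began 48 bases before the start. Slc18a2 held matches 230 and 115 bases before the start. Any of these words occurred in 107 of the 435 promoters (24.6%), in 82 of 412 promoters of mast cell-low genes (19.9%) and in 1245 of 6461 promoters of all kept genes (19.3%). The word AGATAA alone was in 10.6% of mast cell-high promoters and 6.98% of all. The E-box CANNTG, read by helix-loop-helix factors such as Tal1 and Mitf, was in 66.4% and 64.1%, and the word GAGGAAGT, an ETS-type word bound by PU.1, in 3.68% and 3.61%. Mast cell-high promoters had a median of 14 CpG dinucleotides, mast cell-low promoters 15 and those of all kept genes 19. Median GC content was 59.0%, 59.3% and 60.3% in the same order. The lower CpG count was thus not particular to the mast cell-high genes.

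Granule proteases had the largest differences of the listed groups. Of 16 listed proteases 4 were in the table, and the others, among them Cpa3 and Cma1, were not analysed here. All 4 were at least 2-fold higher in mast cells than elsewhere, where 6.72% of all kept genes were. Their median was 9.26 log2 units above the highest other cell type. Tpsb2, a secreted tryptase (NCBIM37 chr17:25503486-25505804, plus strand), was at 187854.5 in mast cells, 119 in macrophages, 30 in eosinophils and 0 in neutrophils and sDCs. Its value sat at the ceiling of the table, so it could not be ranked among the genes that share it. Tpsg1, the membrane-anchored gamma tryptase beside it (chr17:25506218-25511387, plus strand), was at 18831 in mast cells, 2 in eosinophils and 0 in the other 3. Tpsab1, the alpha/beta tryptase of the same cluster (chr17:25480190-25482507, minus strand), was at 5179 in mast cells, 20.5 in macrophages and 0 in the other 3. These tryptases are closely related in sequence, so reads may have been split between them. Prss34, a serine protease of mast cells and basophils, was nearer to the other cell types, at 2221 in mast cells, 1021 in neutrophils, 722.5 in eosinophils, 301 in sDCs and 0 in macrophages, or 2.18-fold above the highest.

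Of 31 listed surface receptors kept, 11 were at least 2-fold higher and 1 lower, where 6.72% and 6.38% of all kept genes were. Mast cells held the highest value for 17 of the 31, and for 1636 of all 6470 kept genes. Kit (NCBIM37 chr5:75970941-76052747, plus strand) was at 122731.5 in mast cells, 8800 in sDCs, 3906.5 in neutrophils, 220.5 in eosinophils and 29 in macrophages. The mast cell level stood 13.9-fold above that of sDCs, and per kb Kit ranked 16 of 6464 genes, taking ceiling values as given. Il1rl1, the IL-33 receptor ST2, was at 199947 in mast cells, 7657 in eosinophils, 779.5 in neutrophils, 92.5 in sDCs and 48.5 in macrophages. That is 26.1-fold above eosinophils, with the mast cell value at the ceiling of the table. Il1rap, the accessory chain of the same receptor, did not share the pattern, at 1049 in mast cells and 2367 in neutrophils. Csf2rb2, the IL-3 receptor beta chain, was 4.37-fold higher in mast cells than in eosinophils, 151676.5 against 34733.5. Its close copy Csf2rb, the common beta chain, was highest in eosinophils, at 140192 against 59764.5 in mast cells. These copies are near-identical in part, so their split is uncertain.

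Receptors for peptides, amines and lipids followed. Mrgprb2, the mouse receptor through which basic peptides activate mast cells, was at 9060.5 in mast cells, 12.5 in eosinophils, 3 in macrophages and 0 in neutrophils and sDCs. Ngfr, the p75 neurotrophin receptor, was at 3902 in mast cells and between 0 and 7 elsewhere. The CD200 receptor family genes Cd200r3 and Cd200r4 were higher, 17.5-fold and 4.92-fold above eosinophils. The prostaglandin E2 receptor Ptger3 was 7.85-fold and the histamine receptor Hrh4 7.23-fold above eosinophils. Itga2b, the integrin alpha IIb of mast cell progenitors and megakaryocytes, was 3.3-fold above eosinophils, 31309.5 against 9501.5. The acid-sensing receptor Gpr65 was the 1 listed receptor that was lower, at 333 in mast cells against 694 to 1333 elsewhere.

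The Mrgpr family as a whole was examined after its values were seen. Of 9 members in the table, 7 were at least 2-fold higher in mast cells, against 6.72% of all kept genes, and as the family was picked on these values nothing is read from its count. Besides Mrgprb2 they were Mrgprx2 at 2362, Mrgpra4 at 2425, Mrgprb1 at 624, Mrgpra3 at 368.5, Mrgprx1 at 82.5 and Mrgpra6 at 43, where the highest other cell type had 30.5 or less. Mrgpra2b went the other way, at 17 in mast cells and 686 in neutrophils, and Mrgpra2a was listed at 0 in mast cells and at 44 in neutrophils. Members are similar in sequence, so reads between neighbouring members are uncertain.

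The amine and proteoglycan list had 7 of 16 kept genes higher and none lower, against 6.72% and 6.38% of all kept genes. Tph1, the enzyme that starts serotonin synthesis, was at 54476.5 in mast cells, 61.5 in eosinophils, 15 in macrophages and 0 in neutrophils and sDCs, an 886-fold difference from eosinophils. Slc18a2, the vesicular monoamine transporter that loads granules with histamine and serotonin, was at 117062 in mast cells and 2282.5 in eosinophils, 51.3-fold apart, with 268 or less in the other 3. Its plasma membrane counterpart Slc6a4, the serotonin transporter, was highest in eosinophils, at 2461 against 470.5. Ddc, which makes serotonin from the Tph1 product, was at 301.5 in mast cells and 25 or less elsewhere. Maob, which degrades amines, was 41.7-fold above eosinophils, 9255.5 against 222, while Maoa was higher in macrophages than in mast cells, 653.5 against 260. Among enzymes that sulphate glycosaminoglycan chains, Hs3st1 was 21.8-fold, Chst15 4.67-fold and Hs6st1 3.41-fold above the highest other cell type. Ext1, which polymerises heparan chains, was lower in mast cells than in macrophages, 214.5 against 1149.

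**Figure D2:**
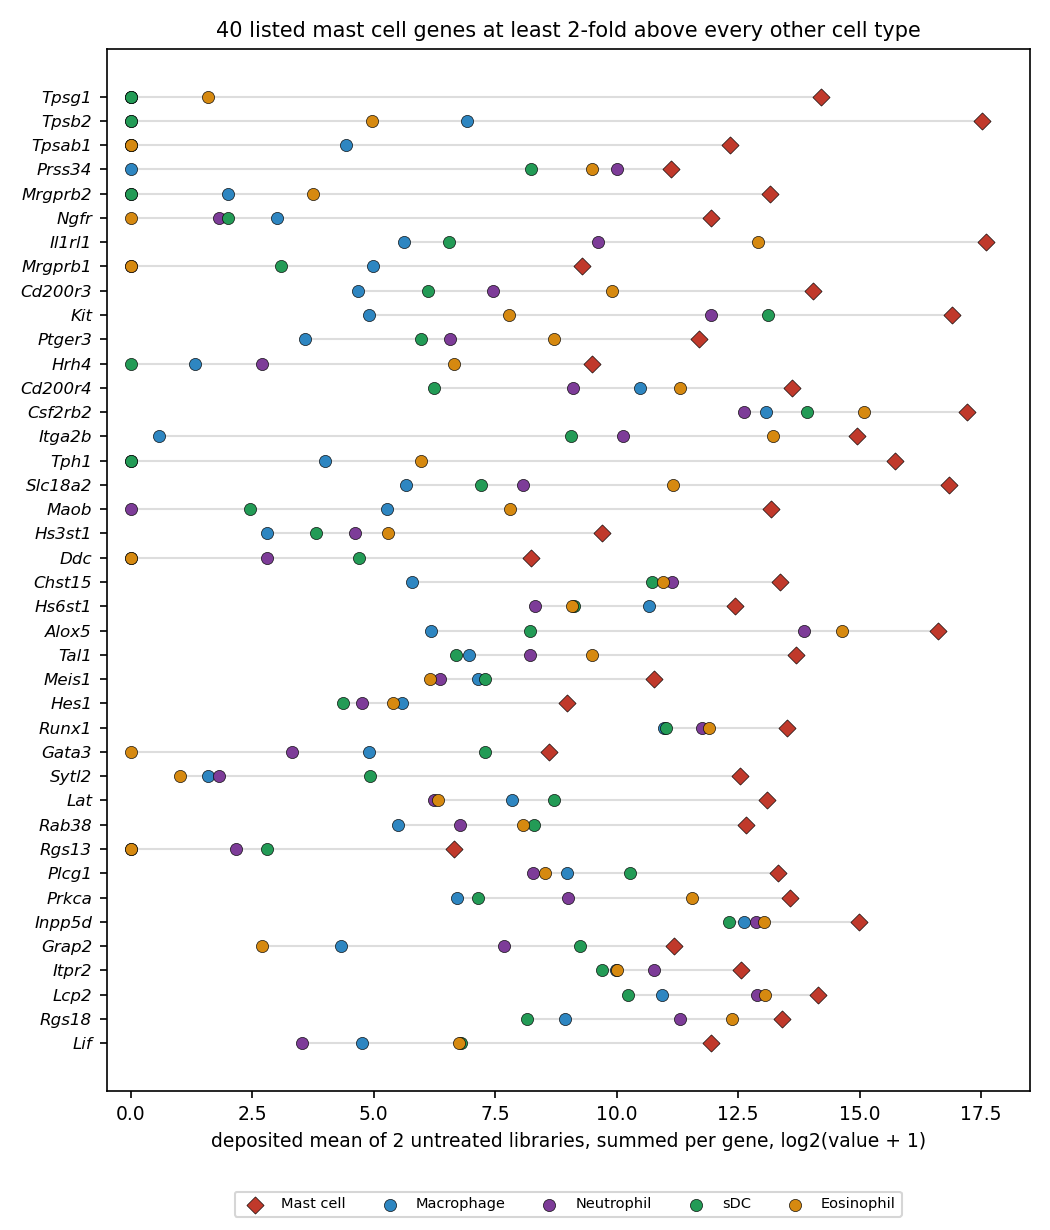
Each row is 1 of the 40 listed mast cell genes at least 2-fold higher in mast cells, grouped from proteases at the top to cytokines at the bottom; diamonds are untreated mast cells, circles the other 4 untreated cell types, on a log2(value + 1) axis. Tpsg1 lies at 2 or less in all 4 other cell types, Tpsb2, Tpsab1 and Tph1 reach 119, 20.5 and 61.5 in their highest, and Runx1, Inpp5d and Lcp2 are high in all 5 and 2.12-fold to 3.85-fold higher in mast cells.

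Of 14 listed lipid mediator enzymes kept, 1 was higher and 2 lower, where 6.72% of all kept genes were higher and 6.38% lower, so the higher share was near that background. Alox5, the 5-lipoxygenase that starts leukotriene synthesis, was at 100481.5 in mast cells, 25425 in eosinophils, 14759.5 in neutrophils, 296.5 in sDCs and 71 in macrophages, 3.95-fold above eosinophils. Ltc4s, which makes leukotriene C4, was at 216 in mast cells and 187 in macrophages, within 2-fold. Lta4h, the enzyme of leukotriene B4, was lower than in eosinophils, 1723 against 17565.5. Ptges, the prostaglandin E synthase, was listed at 0 in mast cells and at 75.5 to 510.5 elsewhere, and Ptgr1, a prostaglandin reductase, was at 25 against 342 to 2073.

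Of 30 transcription factors kept, 5 were higher (against 6.72% of all kept genes) and 2 lower, the latter near the 6.38% of all kept genes. Tal1, a helix-loop-helix factor of blood stem cells, mast cells and erythroid cells, was at 13146 in mast cells, 721.5 in eosinophils, 297 in neutrophils, 123 in macrophages and 102.5 in sDCs, 18.2-fold above eosinophils. Meis1, a homeobox factor of stem cells, was 11.3-fold above sDCs, 1747 against 155, and Hes1, a Notch target, was 10.8-fold above macrophages, 500.5 against 46.5. Runx1 was 3.05-fold above eosinophils, 11612 against 3804.5. Gata3 was at 388 in mast cells, 155 in sDCs, 29 in macrophages, 9 in neutrophils and 0 in eosinophils. Gata1, also a mast cell factor, was higher in eosinophils, 4309 against 2757, and Ikzf2 was at 8426 in eosinophils and 8410.5 in mast cells. Sfpi1, the gene of the myeloid factor PU.1, was lowest in mast cells, at 2328.5 against 6707 to 10768.5, and the LIM protein gene Lmo4 was at 652.5 against 1721.5 to 3345.

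Signalling from Fc epsilon RI to exocytosis had 11 of 36 kept genes higher and 2 lower, against 6.72% and 6.38% of all kept genes. Lat, the membrane adaptor that gathers the signal complex, was at 8730.5 in mast cells, 415 in sDCs, 230 in macrophages, 78.5 in eosinophils and 74.5 in neutrophils, 21.0-fold above sDCs. Its partners Plcg1, a phospholipase C, at 8.24-fold, Grap2, an adaptor, at 3.82-fold and Lcp2, the adaptor SLP-76, at 2.12-fold were higher too. Of downstream genes, Prkca, a protein kinase C, was 4.06-fold, Inpp5d, the phosphatase SHIP, 3.85-fold and Itpr2, a calcium release channel, 3.44-fold above the highest other cell type. Sytl2, a synaptotagmin-like protein that tethers vesicles through Rab27, was at 5950.5 in mast cells and 29.5 in sDCs, and Rab38, a GTPase of lysosome-related organelles, at 6508 and 311.5. Rab27a itself was higher in eosinophils, 6881 against 744. The regulators of G protein signalling Rgs13 and Rgs18 were at 99.5 against 6 or less and at 10834 against 5281 or less. The exchange factor Vav3 was lower, at 54 in mast cells against 410.5 to 1110.5 elsewhere. Vav1 of the same family was within 2-fold of all 4, from 2419.5 to 4397.

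Of 12 mast cell cytokines kept, 1 was higher, a share near the 6.72% of all kept genes. Lif, the leukaemia inhibitory factor, was at 3925 in mast cells, 110 in sDCs, 107 in eosinophils, 26 in macrophages and 10.5 in neutrophils, 35.7-fold above sDCs. Il4 and Il13 were highest in eosinophils, at 775.5 against 224.5 and 130 against 37. Tnf was at 551 in mast cells and highest in neutrophils, at 2191.

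The 20 largest differences reached beyond the listed genes, which supplied 6 of them, Tpsg1, Tpsb2, Tph1, Mrgprb2, Ngfr and Tpsab1. Igfbp5, a secreted binding protein for insulin-like growth factors, came at the top, at 21464.5 in mast cells, 1 in eosinophils and 0 in the other 3, or 13.39 log2 units. Cobl, an actin nucleator, was at 19882 against 3 or less, and Rprm, a cell cycle arrest gene, at 13166 against 2.5 or less. Genes better known from neurons included Syn2, a synaptic vesicle protein, at 7956 against 3.5 or less, and Iqsec3, an exchange factor of synapses, at 5434.5 against 0.5 or less. Ndst3, which sulphates heparan chains, was at 536 in mast cells and listed at 0 in the other 4, as were Tmem233 at 1612.5, the protease inhibitor gene Spink4 at 522 and the proton channel gene Otop1 at 324. Ctla2a, an inhibitor of cathepsin L-like proteases, was high in absolute level, at 99512 in mast cells against 280 or less, and ranked 5 of 6464 per kb on the same terms. It has a near-identical neighbour, so its value is uncertain. A4galt, which makes the glycolipid Gb3, was at 4025 against 10.5 or less, and Arhgap20, a GTPase activator, at 3602.5 against 13 or less. Frmpd1, a scaffold protein, was at 1713 against 1.5 or less.

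**Figure D3:**
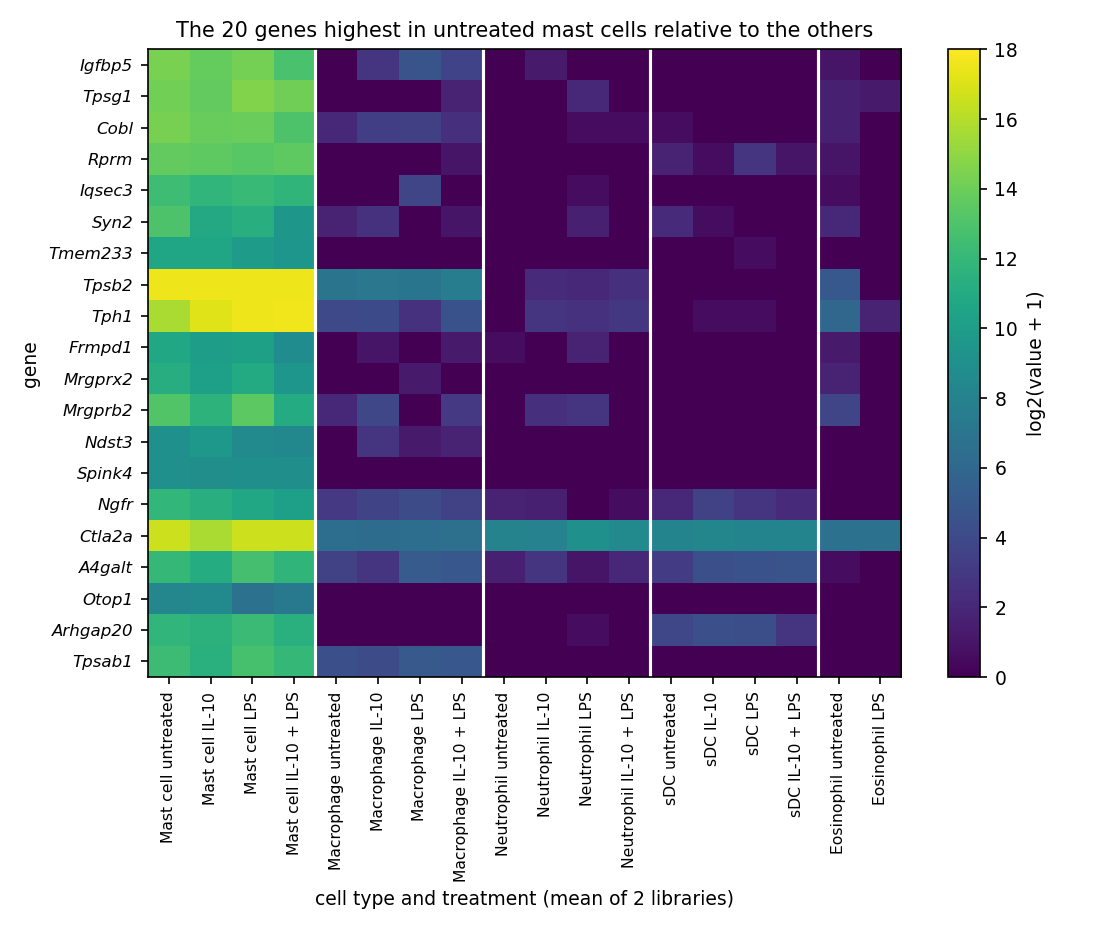
Rows are the 20 genes highest in untreated mast cells relative to the others, columns the 18 cell type and treatment groups, colour log2(value + 1). All 4 mast cell columns hold 108 or more for all 20 genes, including the 3 treated groups that did not enter the choice. The lowest is Otop1 with LPS. Ctla2a is the gene with a visible level in every other cell type, from 91.5 to 280 when untreated.

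Genes low in mast cells numbered 413, and 70 of them were listed at 0 there. On the log2(value + 1) scale 189 were at least 4-fold and 38 at least 16-fold under the lowest other cell type. Mreg, melanoregulin, had the largest difference, at 1 in mast cells, 253.5 in macrophages, 286 in eosinophils, 334.5 in neutrophils and 18091.5 in sDCs. Vcam1, an adhesion molecule for leukocytes, was at 0.5 against 118.5 to 14784.5, and Adam19, a membrane metalloprotease, at 3.5 against 542 to 7898.5. Ifi30, a lysosomal reductase used in antigen processing, was at 64 against 2201.5 to 16395. Ccl22, a chemokine, and Plbd1, a phospholipase B-like protein, were listed at 0 in mast cells and reached 6040 in sDCs and 8507 in neutrophils. The kinase gene Lrrk2 was at 8.5 against 564 to 5545 and the adhesion receptor gene Emr4 at 11 against 436 to 5906. The other 7 of the 15 lowest were Ptges, Ccdc102a, Rnd1, Rab39, Dnmt3l, Slc9a3r2 and the pseudogene Psme2b-ps, whose reads may belong to its parent gene. Each was at 2 or less in mast cells.

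**Figure D4:**
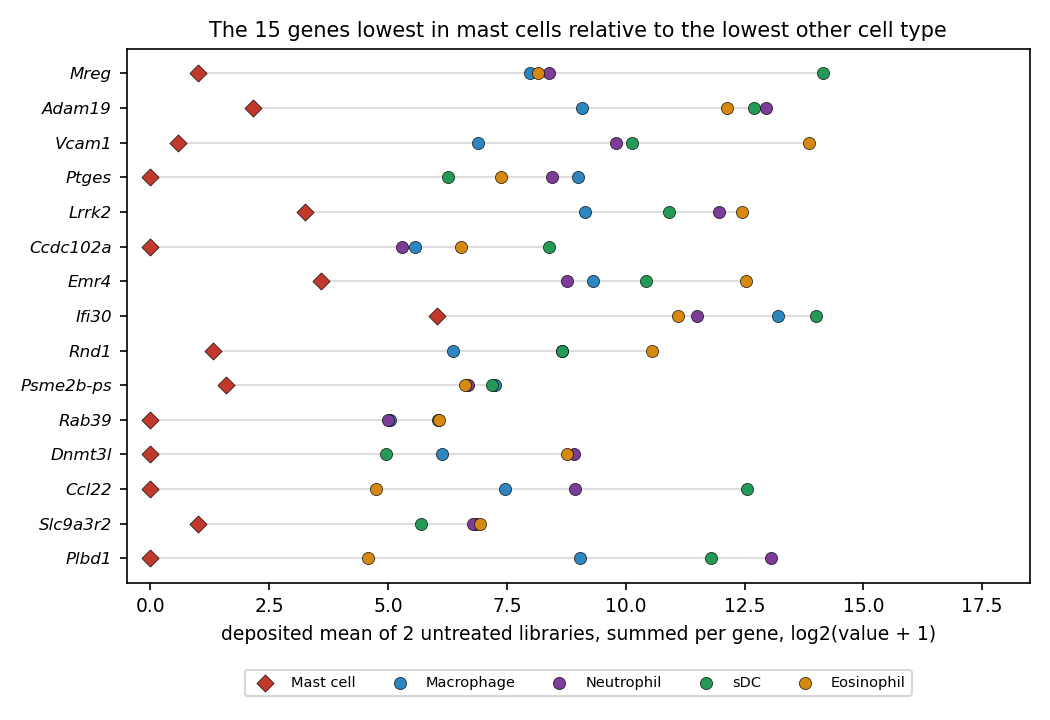
Rows are the 15 genes lowest in untreated mast cells relative to the lowest other cell type; diamonds are mast cells and circles the other 4 untreated cell types, on a log2(value + 1) axis. Mast cell diamonds lie at the left edge, at 0 for 6 genes, and Ifi30 is the gene with the highest mast cell value, at 64.

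Innate sensing, antigen presentation, lysosome and cell cycle lists were counted against the 6.72% of all kept genes that were higher and the 6.38% that were lower. Of 18 kept pattern receptors and adaptors none was mast cell-high and 4 were lower, Tlr9, Tlr13, Clec4a2 and Clec4e. Tlr13 was at 267.5 in mast cells against 1191 to 12025, and Clec4a2 at 72.5 against 1371.5 to 3710. Of 4 kept antigen presentation genes, none of them an MHC class II chain, 3 were lower, all costimulatory, Cd80 at 10 against 212 to 2102, Cd86 at 11 against 140 to 2344 and Cd40 at 66.5 against 146 to 1824.5. Of 21 lysosome genes none was higher and 3 were lower, Asah1, Acp5 and Laptm4b. Of 18 cell cycle genes 6 were lower, Ccnb2, Cdc20, Aurka, Mcm5, Kif11 and Cenpe, with Aurka at 40.5 against 117 to 1293. Ccnd2, cyclin D2, was higher, at 8622 against 1737 or less.

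Markers of other cell types were read across the mast cell column. None of the 3 macrophage, 4 neutrophil, 3 dendritic, 2 eosinophil, 3 B cell and 3 stromal markers kept was mast cell-high. The summed macrophage markers were 1814.5 in mast cells and 208927.5 in macrophages, with Marco listed at 0, and the neutrophil markers 586 and 252655, with Ly6g listed at 0. The 2 eosinophil markers summed to 988 in mast cells and 231327.5 in eosinophils, most of it Ccr3 at 963, with Epx at 25. The 3 B cell markers summed to 3.5 and the 3 stromal markers to 8.5. Of 4 erythroid and megakaryocyte markers Itga2b was higher and the others were at 3.5 or less. No T or NK cell marker was analysed here. The other columns also held markers of further cell types. The eosinophil markers summed to 20099.5 in neutrophils, the B cell markers to 4707.5 in neutrophils and 1560 in sDCs, and the stromal markers to 12326 in macrophages. Values in these columns may thus not come from the labelled cell type alone, which was not tested.

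**Figure D5:**
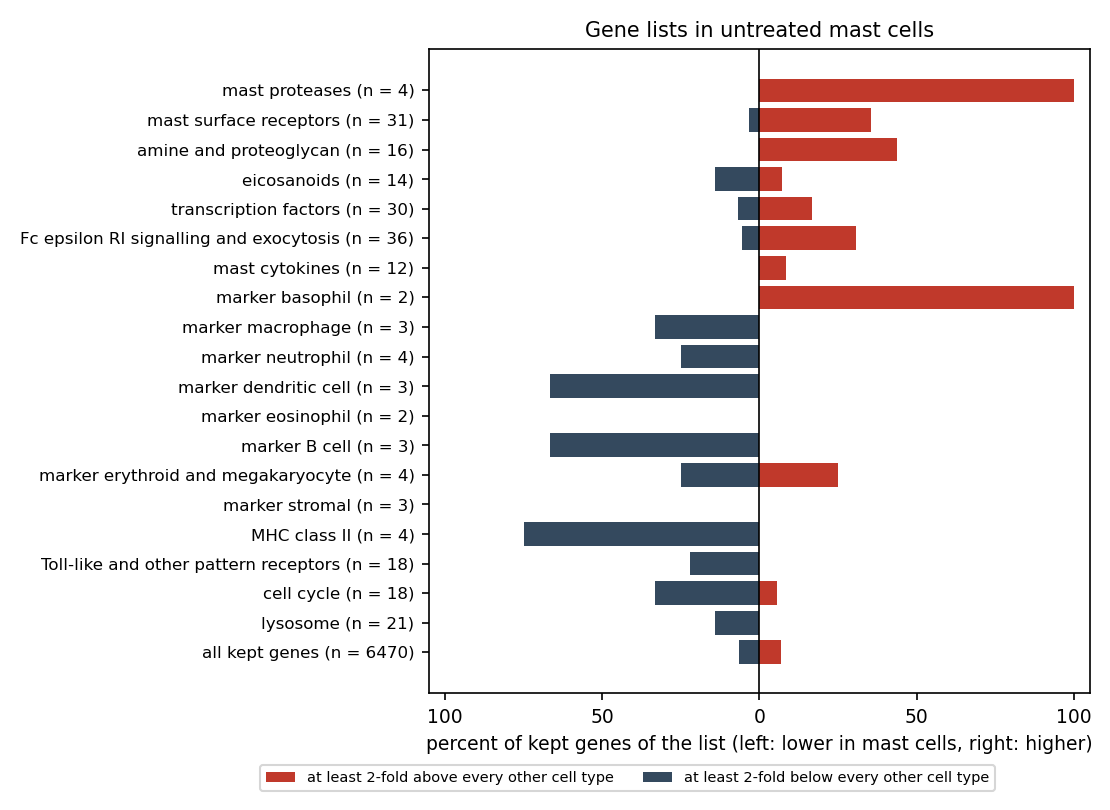
Bars give the percent of kept genes of each list at least 2-fold above every other cell type (right) or below every other cell type (left) in untreated mast cells, with the number kept in brackets and all 6470 kept genes at the foot (6.72% and 6.38%). Proteases and the 2 basophil markers extend to 100% on the right, and antigen presentation (drawn as MHC class II), dendritic and B cell markers lie on the left.

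The treated mast cells were libraries that the choice had not used, but they are the same cell type. Within mast cells few kept genes moved 2-fold with treatment, 5.69% higher and 6.21% lower with LPS. Most differences between cell types would thus recur, and the counts are a description and no independent check. Eosinophils, which held the next highest untreated value for 126 of the 435 genes, have no group given IL-10. With IL-10, 387 of the 435 genes (89.0%) were again at least 2-fold above the highest of the 3 other IL-10 groups, where 8.73% of all kept genes were. With LPS it was 303 (69.7%, against 6.15% of kept genes), over 4 other LPS groups, and with IL-10 and LPS 327 (75.2%, against 8.61%), over 3 others. The median difference was 2.06, 1.72 and 1.91 log2 units in turn. Of the 413 low genes, 358 (86.7%, against 10.9% of kept genes), 269 (65.1%, against 5.95%) and 320 (77.5%, against 11.7%) were again at least 2-fold lower. In mast cells the 435 genes summed to 25.1% of the column with IL-10, 25.7% with LPS and 23.8% with both.

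Within mast cells the 435 genes were more often lower than higher in the treated groups. The LPS and IL-10 comparisons share the untreated mast cell column with the choice, so their counts are a description. With IL-10 14 were at least 2-fold higher (3.22%, against 3.32% of kept genes) and 45 lower (10.3%, against 3.48%). With LPS 29 were higher (6.67%, against 5.69%) and 67 lower (15.4%, against 6.21%). Adding IL-10 before LPS, compared with LPS alone, does not use the untreated column, and there 13 were higher (2.99%, against 3.4%) and 55 lower (12.6%, against 5.9%). The choice still bears on this comparison. The 435 genes were picked for a high mast cell level, while kept genes include many near 0 in mast cells that have no room to fall. Nothing is therefore read from the larger share of lower genes in any of the 3 comparisons.

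Single genes differed in how their values ran over the treatments. Tph1 was at 54476.5 untreated, 144718 with IL-10, 193345.5 with LPS and 204998 with both, the LPS values at the ceiling of the table. Slc18a2 was at 117062 untreated and between 49839.5 and 54858 in the 3 treated groups. Mrgprb2 was low in both groups given IL-10, at 9060.5 untreated, 3216.5 with IL-10, 11062 with LPS and 2191 with both. Syn2 was at 7956, 1904.5, 2580 and 734.5 in the same order. Hs3st1 went from 828 untreated to 1914.5 with IL-10, 1160 with LPS and 8338 with both. Kit was at 122731.5, 98782.5, 130854 and 86014.5 in the same order, and Tpsb2 stayed at the ceiling, from 187513.5 to 187854.5. Whether these differences between treatments exceed the spread of 2 libraries was not tested.

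Genes whose pattern was most like that of Kit over the 18 groups, by Pearson's r of log2(value + 1), were Srcap (0.968), Las1l (0.962), Upf1 (0.957), Setd1a (0.953) and Cry2 (0.952). The groups share cell types, so these are descriptions. None of the 5 was at least 2-fold above the highest other cell type. Cry2, a circadian repressor, was at 815 in mast cells, 522.5 in sDCs, 351 in neutrophils, 272.5 in eosinophils and 169.5 in macrophages. Srcap, a chromatin remodeller, was at 2556.5, 2154, 1923.5, 1711.5 and 1278 in the same order.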

How the data were processed

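RNA was extracted with TRIzol and sequenced on an Illumina HiSeq instrument. Reads were aligned by the authors against Ensembl transcripts (mm9) with RSEM 1.2.1 and bowtie 0.12.9, and tag counts were normalised for GC content with EDASeq. The deposited values are scores, means over 2 libraries of these normalised counts in steps of 0.5. The table used here holds 17015 complete transcript lines, of which 22 (0.129%) had no gene name and were left out, and 6509 genes; 1 incomplete line was dropped. A further library, of CD4+ T cells, has no column and was not analysed here.

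Transcripts were summed per gene in Python 3.11.15 (pandas 2.3.3, numpy 2.4.6). A pseudocount of 1 and a minimum of 10 in any of the 5 untreated groups were used, and 2-fold was the call. Named were listed mast cell genes at least 2-fold high, with a few others of each list, the 20 largest and 15 lowest differences and the 5 genes most like Kit. Of 485 listed names, 221 were in the table, 1 through a RefSeq synonym. Genes and lists were chosen with earlier results of these data known. The Mrgpr, glycolysis and oxidase lists were chosen after the values were seen. The 2-fold call and the word search were run on made-up data, which tests the code only. The simulated counts held planted 4-fold changes and no spread between animals, so they do not bear on real replicates. Promoters came from NCBIM37 with GENCODE vM1. A few values and a promoter are not reported here.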

Additional observations from a re-analysis of the deposited data

How the results depend on the processing

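No paired analysis was possible because the deposited columns are means over both replicates, and for the same reason no replicate could be left out in turn. In the counts for treated groups given here, the minimum of 10 was applied to those groups' own values, so they differ slightly from the shares over the 6470 genes kept on untreated values. The count of 435 high genes was between 399 and 612 with another pseudocount, filter, scaling, transcript choice or treatment group or with 1 comparator cell type left out. It became 1140 when the mean of the other 4 replaced the highest, and 220 at a 4-fold threshold. The count of 413 low genes was less steady. It was 275 with a pseudocount of 10, 1487 against the mean, 189 at 4-fold, 701 in the IL-10 groups, 762 in the groups given IL-10 and LPS, which have 3 comparators, and 665 with eosinophils left out. Among named genes called, differences that changed sign did so in the LPS groups or the groups given both. In the LPS groups Gpr65 was 0.97, Hba-a1 0.51, Cd40 0.5 and Asah1 0.53 above the lowest other cell type, and Pfkp -0.03 from the highest. In the groups given both, Gpr65 was 0.47 and Asah1 0.11 above the lowest, and Ccnd2 -0.4, Slc2a1 -0.7 and Pfkp -0.42 from the highest, all in log2 units. The cause was not tested. No called named gene changed sign under another pseudocount, filter, scaling or transcript choice.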

Other observations

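A pair of gene groups was looked at after the values were seen, so nothing is read from their counts. Of 22 kept glycolysis genes 6 were at least 2-fold higher in untreated mast cells than in every other cell type (6.72% of kept genes were) and 1 was lower. They were Pgk1, phosphoglycerate kinase, at 48582.5 against 13419.5 in eosinophils, Ldha, lactate dehydrogenase A, at 35994.5 against 14852 in macrophages, the glucose transporter Slc2a1 at 9284.5 against 3019 in macrophages, the phosphofructokinases Pfkp and Pfkl at 9890 against 3219 and 4911 against 1987, and Pfkfb2 at 1315.5 against 433. Hk3, a hexokinase of phagocytes, was the lower gene, at 429 against 949.5 to 9941.5. Gapdh was within the range of the others, at 34471 in mast cells and 11604.5 to 44317.5 elsewhere. Of the 6 higher genes, Slc2a1 and Pfkp changed sign in treated groups, as given above.

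Of 4 kept genes of the phagocyte NADPH oxidase and its proton channel none was higher and 2 were lower. Of all kept genes 6.72% were higher and 6.38% lower, and as the group was picked on these values nothing is read from its count. Cybb, the catalytic subunit, was at 281 in mast cells, 6223.5 in sDCs, 18515 in eosinophils, 94864 in neutrophils and 140085 in macrophages. Hvcn1, the proton channel, was at 987 against 5068 to 8333. Rac2, of the same group, was not lower, at 18580.5 in mast cells, 8008.5 in macrophages and 2888 in sDCs. It was at 37286 in eosinophils and 45736 in neutrophils. With LPS alone Cybb was at 796.5 in mast cells and 15598.5 or more in the other 4 cell types.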
